A study of Mus musculus with 14 samples.

Results

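Gene expression in Pax5KO engrafted cells was compared with that in ProB cells, on 5 of the 14 Affymetrix arrays of a series on early B cell development in mouse bone marrow. The members were the 3 arrays titled as Pax5 knockout engrafted, the 2 arrays titled ProB, and all 34945 of 45101 probe sets that carry 1 gene symbol, which stand for 18193 genes. The comparison asks which transcripts of normal ProB cells arise without Pax5 and which do not. A further 3 arrays of WT engrafted cells served to mark differences from ProB cells that both engrafted groups shared.

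Pax5KO engrafted cells (3 arrays) descended from fetal liver of day 15 embryos that lacked Pax5 and carried a reporter for λ5. WT engrafted cells (3 arrays) descended from wild type fetal liver of the same age with the same reporter. Both kinds of donor cell were put into sublethally irradiated mice, and after 4 weeks the B220+ marrow cells that carried reporter signal were sorted. ProB cells (2 arrays) were sorted from the marrow of mice with no transplant, by gates that the labels do not give. All mice are labelled C57Bl6 and adult, 8 to 12 weeks. The labels call the arrays biological replicates without saying whether each is a separate mouse or a pool. The p-values therefore measure only the spread between arrays of a group. That spread was pooled over every array of the series, including groups not compared here. Pax5KO engrafted and ProB cells thus differ in genotype, in the transplant, in fetal liver origin and in the reporter sort. Among these 5 arrays those factors cannot be told apart.

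Pax5 is a transcription factor of B lineage cells. It turns on genes of B cell signalling, such as the co-receptor CD72 and the receptor chain Cd79a, and shuts off genes of other blood lineages and of progenitors. E2A (from Tcf3) and EBF1, regulators that act before it, open the early B program, including the surrogate light chain made of λ5 (from Igll1) and VpreB (from Vpreb1 and Vpreb2). Pax5-deficient progenitors in mice are known to stop at the ProB stage and to keep the capacity to form other blood cells. The surrogate light chain pairs with the antibody heavy chain and, with Cd79a and Cd79b, forms the pre-B receptor.

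The 250 bases before the gene start are shown for 3 components of the B cell receptor program. Igll1 was not called, and Cd22 and Cd79a were called lower in Pax5KO cells. Pax5KO cells were sorted by the λ5 reporter, so their Igll1 level was chosen by the sort and is no measure of a response. They are RefSeq sequences of assembly GRCm38.p6, written 5′ to 3′ on the gene's strand. Capitals mark CCCNNGGG, the core of the motif known for EBF1, which reads the same on both strands. Igll1 lies on chr16:16863986-16864235, minus strand, Cd22 on chr7:30879029-30879278, minus strand, and Cd79a on chr7:24897247-24897496, plus strand.
Igll1: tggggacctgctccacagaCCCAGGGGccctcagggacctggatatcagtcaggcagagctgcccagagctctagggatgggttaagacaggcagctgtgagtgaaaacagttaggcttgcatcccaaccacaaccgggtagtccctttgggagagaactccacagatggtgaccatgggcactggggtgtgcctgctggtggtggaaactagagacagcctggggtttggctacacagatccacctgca
Cd22: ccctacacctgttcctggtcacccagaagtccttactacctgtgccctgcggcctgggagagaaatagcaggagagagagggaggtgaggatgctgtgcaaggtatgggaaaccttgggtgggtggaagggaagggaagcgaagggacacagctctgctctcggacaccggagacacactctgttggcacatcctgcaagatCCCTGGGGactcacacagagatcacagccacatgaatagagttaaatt
Cd79a: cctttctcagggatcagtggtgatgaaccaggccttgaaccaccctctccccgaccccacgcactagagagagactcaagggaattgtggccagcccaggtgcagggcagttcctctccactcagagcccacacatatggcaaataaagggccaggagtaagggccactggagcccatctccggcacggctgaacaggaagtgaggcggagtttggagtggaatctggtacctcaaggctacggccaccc
Counted from the gene start, the match begins at -231 for Igll1 and at -48 for Cd22, and the Cd79a window holds none. Of all 32544 distinct promoter windows, 11.9% held the motif. The share was 16.6% of 815 windows of genes called higher in Pax5KO cells, 14.4% of 167 windows of genes called lower, and 14.9% of 5037 windows of ProB transcripts not called. A match is a description of the letters and not a bound site. A window without this exact pattern can still hold a site that departs from it.

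Values are log2 signals that run from 2.32, the lowest value and a floor shared by all arrays, to 16.1. A difference is Pax5KO engrafted minus ProB on the log2 scale unless stated, given with its standard error (SE) from the model. A gene was called when its limma p, adjusted over all 18193 genes, was under 0.05. Where every array of a group lay within 0.5 of the lowest value, the group is said to be at the floor, and its difference from another group bounds the change from below. In bulk samples, fewer cells of a type and less RNA per cell cannot be told apart.

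The labels were checked against marker genes. Igll1, the gene behind the sort reporter, read 12.92, 12.59 and 13.12 in Pax5KO cells, against 12.93 and 13.47 in ProB cells, and Ptprc, which encodes B220, read between 10.46 and 12.10 on the same 5 arrays. Arrays of a group correlated at 0.975 to 0.989 in Pax5KO cells and at 0.976 in ProB cells. Cd3e, Cd3g, Ncr1, Siglech, Lcn2, Elane and Cdh5, which mark T, NK, dendritic, granulocyte and endothelial cells, lay within 0.5 of the floor on all 5 arrays. Other genes of the same lineages were read in Pax5KO cells, among them Ctsg (8.49 to 8.78), Mpo (7.51 to 7.99), Il18r1 (6.57 to 7.54) and Cd247 (5.52 to 6.07). S100a8, a granulocyte gene, was 1.58 to 2.41 above ProB cells when 1 array at a time was left out, without a call. The plasma cell markers Igha, Jchain and Sdc1 were read on the ProB arrays, with Igha at 11.91 and 11.95, while Tnfrsf17 was at the floor. The mean levels of the T, NK, granulocyte and dendritic lists, given with those lists, were above those of ProB cells. The signal of the 3′ actin control minus the 5′ one, a sign of RNA degradation, was 3.16, 3.14 and 4.57 in Pax5KO cells and 2.73 and 3.67 in ProB cells. For the Gapdh control it was 3.9, 3.17 and 5.79 in Pax5KO cells and 2.4 and 3.32 in ProB cells. Pax5KO array 3 was the highest of the 5 arrays on both controls. Xist was high, from 10.71 to 13.16, on all 5 arrays, but low on WT engrafted arrays 1 and 2.

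Pax5 itself was read brighter in Pax5KO cells on the probe set that stood for the gene. The brighter of its 2 probe sets gave 7.95, 7.92 and 7.57 in Pax5KO cells, 6.76, 6.18 and 6.60 in WT engrafted cells, and 3.92 and 4.90 in ProB cells. The 3 groups did not overlap. The difference was 3.40 (SE 0.67, limma adjusted p = 0.0230), and the call ended without Pax5KO array 1 or 2 or ProB array 1 (limma adjusted p 0.0763, 0.0716 and 0.0848). Pax5 carried the transplant mark explained further on (WT engrafted minus ProB 2.10, not called). With every probe set tested, 1 of the 2 was called higher. The extent of the Pax5 deletion is not stated, so the probe set does not check the genotype.

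Between Pax5KO engrafted and ProB cells, 953 of 18193 genes (5.24%) were called. More genes were higher than lower in Pax5KO cells, with 768 (4.22%) called higher and 185 (1.02%) called lower, so that 80.6% of calls were higher. Without adjustment, 2827 genes had a p under 0.05. The groups did not overlap for any called gene, and both groups were at the floor in 25 of them. The median difference over all genes was 0.00. The split of the calls depended on the scaling: after quantile normalisation 411 genes were called higher and 290 lower (58.6% higher). With equal array medians, which moved the median difference of all genes by -0.20, 1198 were called higher and 5312 lower (18.4% higher). Without ProB array 1 the counts were 652 higher and 1231 lower (34.6% higher), and without ProB array 2 they were 492 and 380 (56.4%). Without Pax5KO array 1 or 2 the total was 565 or 625 genes. Of the genes called lower, 98 did not reach the level set for ProB transcripts.

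**Figure D1:**
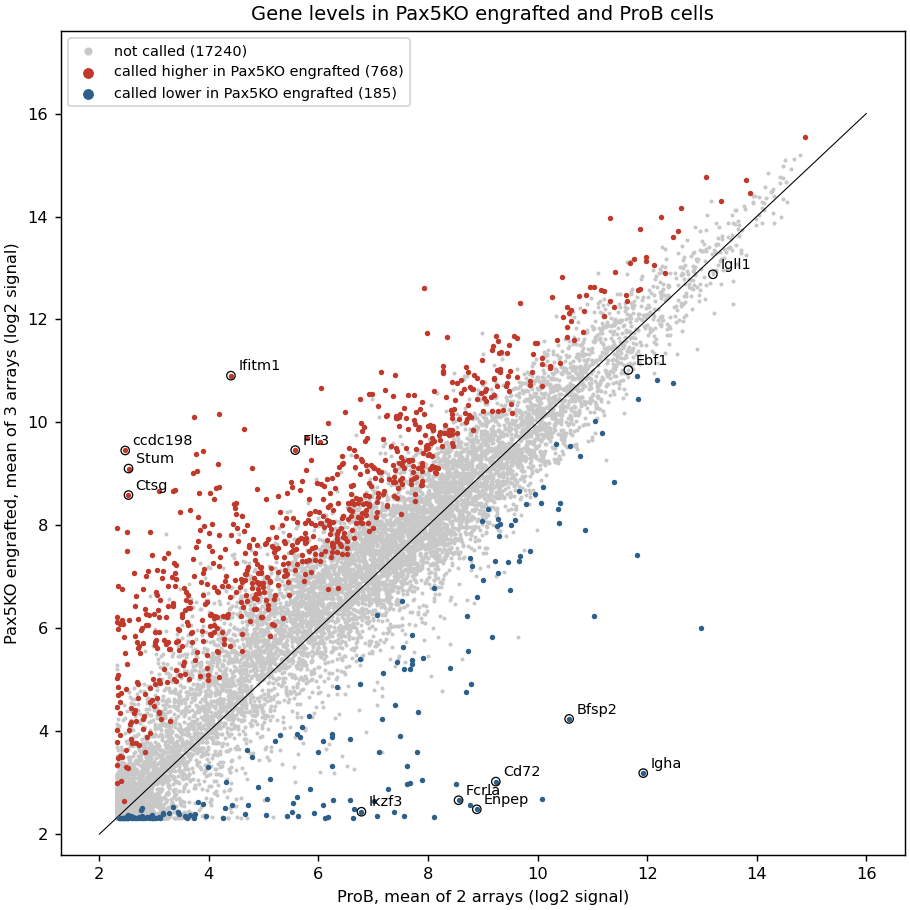
Mean log2 signal of 18193 genes in Pax5KO engrafted cells (vertical axis, 3 arrays) against ProB cells (horizontal axis, 2 arrays), with genes called higher in red, genes called lower in blue and the line of equal signal in black. Most called genes (768 of 953) lie above the line, and Enpep, Fcrla and Ikzf3 lie near the floor of Pax5KO cells.

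Most transcripts of normal ProB cells were present at a level the test did not separate from that in Pax5KO cells. A ProB transcript was defined as a gene at least 4 above the lowest value on both ProB arrays, which 5185 genes met. Of these, 8 (0.154%) were called lower and lay at the floor in Pax5KO cells, and 79 (1.52%) were called lower but stayed above the floor. Another 308 (5.94%) were called higher. For 950 (18.3%) there was no call and the 95% interval of the difference lay within -1 to 1, that is, less than 2-fold either way. For 3840 (74.1%) there was no call but a wider interval, and these cannot be placed as kept or changed. The median difference over all ProB transcripts was 0.14. ProB values chose these genes, so the counts are a description.

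The 8 ProB transcripts at the floor of Pax5KO cells were Bcat1, Enpep, Ighg3, Mgst1, Otub2, Pfn2, Rsph1 and Scd1. Each read at least 6.43 on both ProB arrays, and each of these differences is a lower bound. Enpep, the aminopeptidase known as BP-1 that marks B cell precursors, read 2.48 on each of the 3 Pax5KO arrays, against 9.01 and 8.77 in ProB cells. The Pax5KO arrays lay far below the others, with a difference of -6.41 (SE 0.10, limma adjusted p = 1.77e-08). In WT engrafted cells Enpep read 8.01, 7.83 and 8.14, a called difference from ProB of -0.90, so it carries the transplant mark although that difference was small beside the other. Rsph1, a radial spoke protein of cilia, read 2.64, 2.66 and 2.67 in Pax5KO cells against 6.72 and 6.43 in ProB cells, and was not marked.

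The transplant mark was given to a called gene when WT engrafted minus ProB had the same sign and was itself called or was at least 0.5 of the size of Pax5KO engrafted minus ProB. Both differences use the same 2 ProB arrays, so a chance deviation of those arrays moves them together. Of the gene lists given further on, 3 had the highest medians of WT engrafted minus ProB. These were B cell maturation (2.94), MHC class II presentation (2.66) and the pre-B stage (2.32), against 0.00 over all genes. The mark cannot tell such a difference in stage apart from the transplant. A gene in which WT engrafted cells lay on the other side of ProB cells could not receive it. In WT engrafted against ProB cells, 897 genes (4.93%) were called, 661 higher (3.63%) and 236 lower (1.30%). The 236 became 97 with a term for high Xist, 1280 without ProB array 1, and 108 or 152 without WT engrafted array 1 or 2. Of the genes called in Pax5KO cells, 380 of 768 rises (49.5%) and 114 of 185 falls (61.6%) were marked. This left 388 rises and 71 falls without the mark. Among ProB transcripts, 34 of the falls were marked and 53 were not. The share of marked falls depended on the settings. It was 30.8% (57 of 185) when the WT engrafted difference had to be at least 1, 39.1% (66 of 169) without dim genes, 93.9% (1156 of 1231) without ProB array 1 and 86.8% (330 of 380) without ProB array 2. Without Pax5KO array 1 or 2, 67 or 69 falls were marked. The marked total of 494 was 354 when only genes called in WT engrafted cells were counted. It was 269 or 295 without Pax5KO array 1 or 2 and 1536 without ProB array 1.

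**Figure D2:**
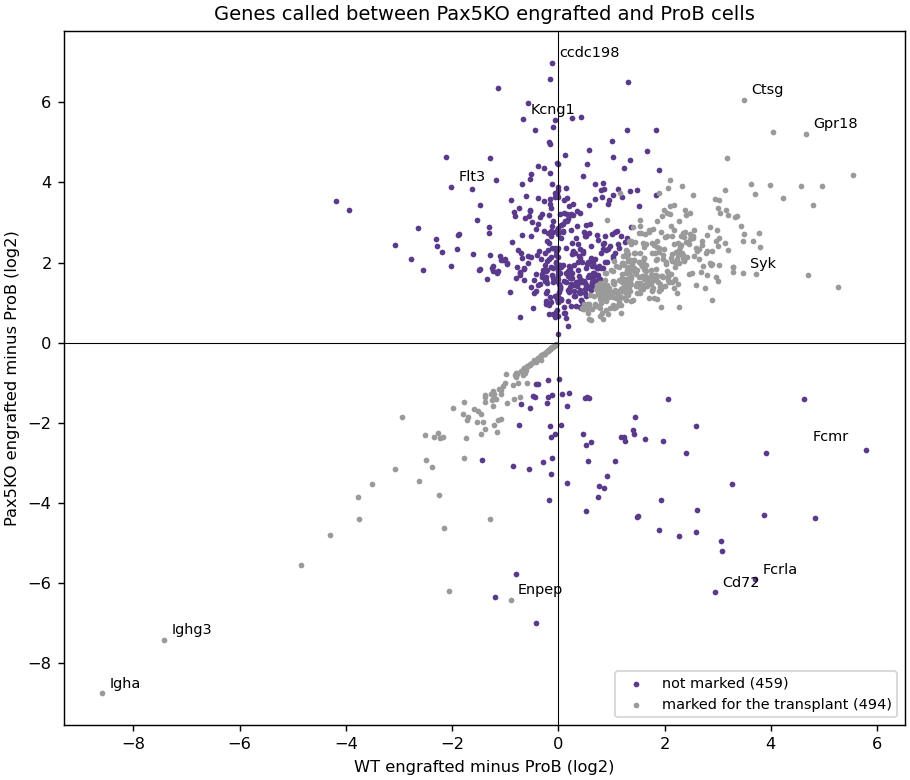
Pax5KO engrafted minus ProB (vertical axis, log2) against WT engrafted minus ProB (horizontal axis, log2) for the 953 called genes, with the 494 marked for the transplant in grey and the others in purple. The ProB arrays enter both axes, so the points are no test of a relation. Igha and Ighg3 lie far down the shared diagonal, while Cd72, Fcrla and Fcmr lie low on the vertical axis and to the right of 0 on the horizontal one.

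Cd72, Fcrla and Ms4a1 were among the largest falls without the transplant mark. Cd72, an inhibitory co-receptor, read 2.78, 3.02 and 3.26 in Pax5KO cells, 12.33, 12.54 and 11.71 in WT engrafted cells, and 8.89 and 9.58 in ProB cells. Fcrla, an Fc receptor-like molecule inside B cells, read 2.61, 2.49 and 2.88 in Pax5KO cells, 12.67, 12.25 and 11.88 in WT engrafted cells, and 8.01 and 9.10 in ProB cells. Ms4a1, which encodes CD20, read 2.42, 2.36 and 3.12 in Pax5KO cells, 12.41, 12.23 and 10.90 in WT engrafted cells, and 7.01 and 7.02 in ProB cells. In all 3 genes the groups were wholly apart, and WT engrafted cells lay above ProB cells, opposite to Pax5KO cells. Cd72 fell by 6.22 (SE 0.39, limma adjusted p = 8e-05), Fcrla fell by 5.90 (SE 0.32, limma adjusted p = 4.3e-05), and Ms4a1 fell by 4.38 (SE 0.42, limma adjusted p = 0.000805). Of the Fcrla probe sets 2 of 3 were called, and of those of Ms4a1 both were.

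Bfsp2 had the largest of these falls. It encodes a beaded filament protein known from the eye lens, and read 3.57, 4.35 and 4.80 in Pax5KO cells, 9.19, 9.18 and 9.79 in WT engrafted cells, and 10.30 and 10.85 in ProB cells. The fall was 6.34 (SE 0.37, limma adjusted p = 6.55e-05). Ikzf3, which encodes Aiolos, a zinc finger regulator of B cell differentiation, read 2.36, 2.47 and 2.47 in Pax5KO cells, against 6.15 and 7.41 in ProB cells, and so lay at the floor without Pax5. It fell by at least 4.35 (SE 0.30, limma adjusted p = 0.00014), with 1 of its 3 probe sets called. Lgr5, a receptor for R-spondins, was at the lowest value, 2.32, on all 3 Pax5KO arrays and read 7.44 and 5.83 on the ProB arrays. Lgr5 fell by at least 4.31 (SE 0.42, limma adjusted p = 0.000851), with 1 of its 2 probe sets called. On 1 ProB array each, Ikzf3 and Lgr5 missed the level set for ProB transcripts.

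Scd1, Otub2, Mgst1 and Pfn2 also lay at the floor in Pax5KO cells. Scd1, a fatty acid desaturase, read 2.33, 2.33 and 2.42 in Pax5KO cells against 7.67 and 7.45 in ProB cells, with a fall of at least 5.20 (SE 0.41, limma adjusted p = 0.000363). Otub2, a deubiquitinating enzyme, fell by at least 4.95 (SE 0.25, limma adjusted p = 3.04e-05), and Mgst1, a membrane-bound glutathione transferase, fell by at least 4.71 (SE 0.56, limma adjusted p = 0.00233). Scd1, Otub2 and Mgst1 each had 1 of 2 probe sets called. Pfn2, an actin-binding profilin, read 2.34, 2.32 and 2.34 in Pax5KO cells, against 8.16 and 8.04 in ProB cells, with 3 of 3 probe sets called. Gpr155 fell by 4.68 (limma adjusted p = 0.00300). Srpk3, a kinase of splicing factors, read 2.95, 2.73 and 4.26 in Pax5KO cells and 7.04 and 8.18 in ProB cells, with a limma adjusted p at the threshold (0.05). With every probe set tested, 0 of its 4 were called. Each of the 8 arrays of the 3 groups was left out in turn. The Srpk3 call ended in every such omission (limma adjusted p 0.0609 to 0.247), and that of Pfn2 ended without ProB array 2 (limma adjusted p = 0.0529). The other 10 of these 12 falls were called in all 8 omissions.

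**Figure D3:**
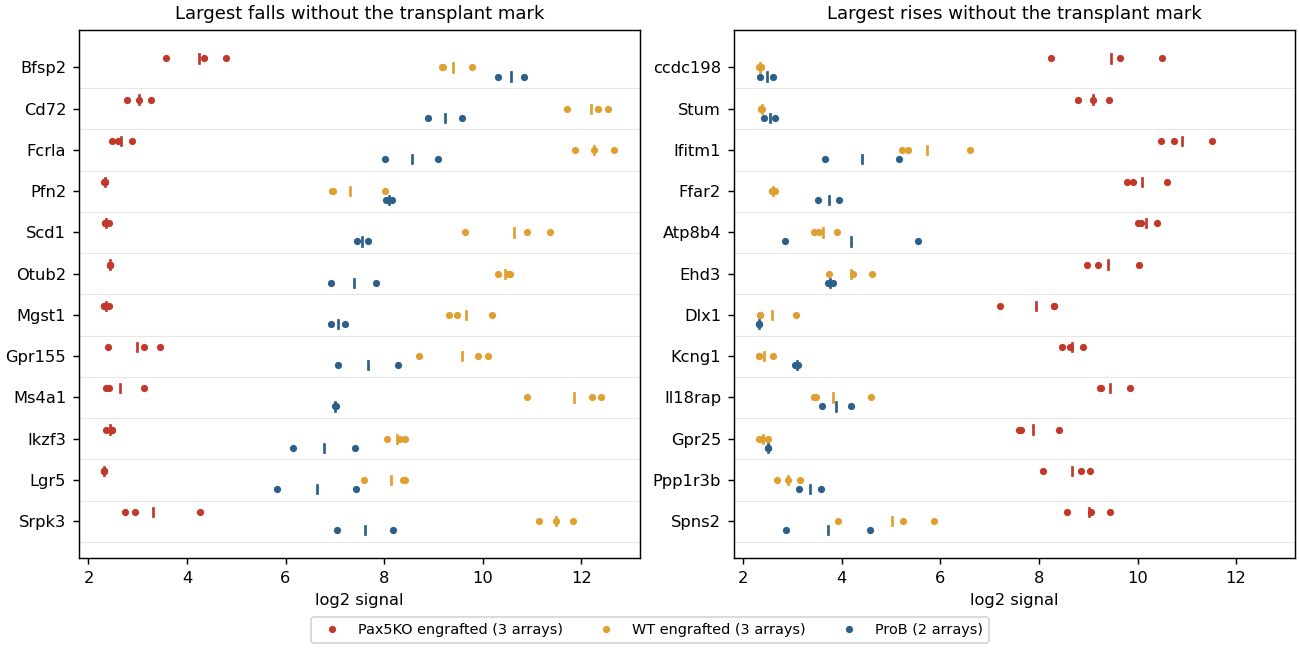
Log2 signal on each array (points) and group mean (ticks) of the 12 largest falls (left) and the 12 largest rises (right) without the transplant mark, in Pax5KO engrafted (red), WT engrafted (yellow) and ProB cells (blue). Pax5KO arrays stand apart from ProB arrays in all 24 genes, and Bfsp2 and Pfn2 are the 2 falls whose WT engrafted mean lies below the ProB mean.

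Antibody light chain segments fell too and were passed over in the ranking of named genes. Igkv8-30, a κ variable segment, read 4.46, 5.87 and 7.69 in Pax5KO cells, 12.70, 12.71 and 12.32 in WT engrafted cells, and 13.23 and 12.75 in ProB cells. The difference was -6.98 (SE 0.80, limma adjusted p = 0.00195). Iglv1, a λ variable segment, read 3.02, 2.84 and 3.30 in Pax5KO cells against 9.32 and 6.45 in ProB cells (difference -4.83, limma adjusted p = 0.00640). Reads of such segments on an array can cross-hybridise between family members.

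Genes described as activated by Pax5 were lower or not called, and none was higher. Of 25 measured members 10 (40.0%, against 1.02% of all genes) were called lower and 0 higher. The median difference of the list was -1.21, against 0.00 over all genes. The 10 were Cd72, Ikzf3, Cplx2, Bcar3, Siglecg, Cd79a, Id3, Slamf6, Sdc4 and Vpreb3, and none carried the transplant mark. Leaving out 1 array in turn gave 7 to 9 called lower. The list was written with earlier results of these data known, and its direction is not independent evidence.

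Among these, Cplx2, a regulator of vesicle fusion, read 3.42, 3.43 and 3.95 in Pax5KO cells, against 7.77 and 7.84 in ProB cells. It fell by 4.20 (SE 0.28, limma adjusted p = 0.000114), with 3 of 3 probe sets called. Bcar3, an adaptor of integrin signalling, read 2.51, 2.48 and 2.97 in Pax5KO cells and 5.92 and 6.61 in ProB cells. Siglecg, an inhibitory lectin of B cells, read 3.40, 3.76 and 4.36 in Pax5KO cells, 10.57, 10.63 and 10.31 in WT engrafted cells, and 6.74 and 6.43 in ProB cells. Id3, an inhibitor of E proteins such as E2A, read 5.25, 4.98 and 5.38 in Pax5KO cells against 7.56 and 7.77 in ProB cells (difference -2.46, limma adjusted p = 0.00233). Slamf6 and Sdc4 differed by -2.36 and -1.58. The Slamf6 call ended without Pax5KO array 1 or either ProB array (limma adjusted p up to 0.100), and the Sdc4 call ended in 7 of 8 omissions, all but that of ProB array 1 (up to 0.282).

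Other members of that list were not called. Irf8, an interferon regulatory factor of B and myeloid cells, lay between 9.95 and 10.26 on all 5 arrays. Its difference was 0.00 with a 95% interval of -0.45 to 0.45. For Spib the interval was -1.36 to 0.42 and for Tnfrsf13c, the BAFF receptor, -1.70 to 1.82. For Irf4 it was -3.46 to -0.09, which leaves out 0. Irf4 was lower in each of the 8 omissions of 1 array, by 1.59 to 1.97, but was called in 0 of them. Cr2, Fcer2a, Ciita and Nid1 read near the floor in both groups, with at most 2.89 on any of the 5 arrays. Fcer2a and Ciita were higher on WT engrafted arrays, up to 6.4 and 4.81. Blnk, the adaptor that links the pre-B receptor to its kinases, was brighter in Pax5KO cells by 1.14 without a call (limma adjusted p = 0.209).

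Transcription factors of the B lineage were split. Of 22 measured members 4 were called higher (18.2%, against 4.22% of all genes) and 3 lower (13.6%, against 1.02%). The median was -0.04, and omissions of 1 array gave 1 to 4 higher, 2 to 3 lower and medians of either sign (-0.27 to 0.18). Ebf1 read 10.90, 11.09 and 11.07 in Pax5KO cells, against 10.99 and 12.33 in ProB cells, and the 2 groups overlapped (difference -0.64, 95% interval -1.69 to 0.41). Pou2af1, a coactivator of antibody genes, differed by 0.10 (interval -0.40 to 0.60), Ikzf1, which encodes Ikaros, by 0.10 (-0.66 to 0.86), and Bcl11a by -0.07 (-0.82 to 0.68). These 3 intervals lay within 2-fold. Tcf3 and Foxo1, a forkhead factor needed for Rag expression, differed by -0.20 and 0.59 with wider intervals, -1.55 to 1.14 and -0.21 to 1.38.

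The 3 factors called lower were Ikzf3, Id3 and Gfi1, and the 4 called higher were Pax5, Sox4, Spi1 and Runx1. Spi1, which encodes PU.1, a factor of myeloid and lymphoid progenitors, read 7.14, 6.81 and 6.73 in Pax5KO cells, 6.90, 7.04 and 7.31 in WT engrafted cells, and 4.69 and 5.08 in ProB cells. It rose by 2.01 (SE 0.20, limma adjusted p = 0.00101) and was marked for the transplant, as was Sox4 with 2.11. Runx1, a factor of blood stem cells and lymphocytes, read 9.21, 9.69 and 9.60 in Pax5KO cells and 7.60 and 7.58 in ProB cells, without the mark. Of its 6 probe sets 1 was called. The Runx1 call ended in 5 of 8 omissions, without any 1 of the Pax5KO or ProB arrays (limma adjusted p up to 0.142). The Sox4 call ended without Pax5KO array 1 or 2 or ProB array 1 (up to 0.0900), and that of Gfi1, which differed by -1.33, without Pax5KO array 2 or 3 or ProB array 2 (up to 0.151).

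Of the surrogate light chain genes, Igll1 and Vpreb1 were not called and Vpreb2 was not analysed here, while Cd79a and Cd22 were called lower. Of 16 measured genes of the surrogate light chain and of pre-B receptor signalling, 6 were called lower and 2 higher, with a median of -0.37. The shares were 37.5% and 12.5%, against 1.02% and 4.22% of all genes. The 6 became 4 without Pax5KO array 1 or ProB array 1, and 3 without ProB array 2. Igll1 differed by -0.32 (95% interval -1.23 to 0.59), and Vpreb1, which read 12.94, 13.00 and 13.21 in Pax5KO cells and 12.80 and 13.77 in ProB cells, by -0.24 (interval -1.24 to 0.77). Since cells of both engrafted groups were sorted by the λ5 reporter, the Igll1 level was chosen by the sort. Cd79a read 5.48, 5.40 and 5.36 in Pax5KO cells, 8.13, 8.57 and 8.84 in WT engrafted cells, and 8.29 and 7.52 in ProB cells, and the Pax5KO arrays lay below all others. Its difference was -2.49 (SE 0.45, limma adjusted p = 0.0149), and the call ended without ProB array 1 (0.0569). Cd79b, its partner chain, read 11.76, 11.80 and 12.27 in Pax5KO cells against 10.28 and 11.21 in ProB cells and was not called (limma adjusted p = 0.0942), but was without ProB array 2 (0.0482).

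Cd22, an inhibitory lectin that binds sialic acid, read 6.43, 5.21 and 7.09 in Pax5KO cells, against 8.67 and 8.74 in ProB cells. It differed by -2.46 (SE 0.44, limma adjusted p = 0.0149), and the call ended without ProB array 2 (0.0733). Of the 2 Cd22 probe sets 1 was called. Vpreb3 fell by 1.39 and Pik3ap1, an adaptor of PI3 kinase also called BCAP, by 1.85. The Vpreb3 call ended without Pax5KO array 1 or 3 or ProB array 2 (up to 0.125), and the Pik3ap1 call without any 1 of the Pax5KO or ProB arrays or WT engrafted array 1 (up to 0.181). Syk, the kinase that carries the pre-B receptor signal, was higher in Pax5KO cells by 1.73 (SE 0.24, limma adjusted p = 0.00486), and Plcg2, a phospholipase downstream of it, by 1.36 (SE 0.18, limma adjusted p = 0.00385). Syk was marked for the transplant, since WT engrafted cells lay 3.47 above ProB cells. Ighm, the μ heavy chain, differed by -1.08 without a call (limma adjusted p = 0.0667), but 5 of its 11 probe sets were called lower and the mean over them fell by 4.06. It was also called without Pax5KO array 3 (0.0151).

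No gene of V(D)J recombination was called lower. Of 10 measured members 2 (20.0%, against 4.22% of all genes) were called higher, 0 to 3 under omissions of 1 array. The median was 0.55. Rag1, a subunit of the recombinase, read 12.50, 12.35 and 10.38 in Pax5KO cells, against 9.28 and 8.70 in ProB cells, a difference of 2.75 without a call (limma adjusted p = 0.0750). It was called without Pax5KO array 3 (3.43, limma adjusted p = 0.0209) or WT engrafted array 3 (0.0405). Dntt, the terminal transferase, read 13.35, 13.34 and 13.45 in Pax5KO cells, 10.69, 11.28 and 9.49 in WT engrafted cells, and 11.86 and 12.78 in ProB cells, also without a call (difference 1.06, interval -0.09 to 2.20). Xrcc6 and Prkdc, of the end-joining machinery, were called higher by 1.31 and 1.45, both with the mark. The Xrcc6 call ended in all omissions but those of Pax5KO array 3 and WT engrafted array 3 (limma adjusted p up to 0.135). The Prkdc call ended without Pax5KO array 1 or 3 or ProB array 2 (up to 0.0747), and neither gene was called after quantile normalisation.

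**Figure D4:**
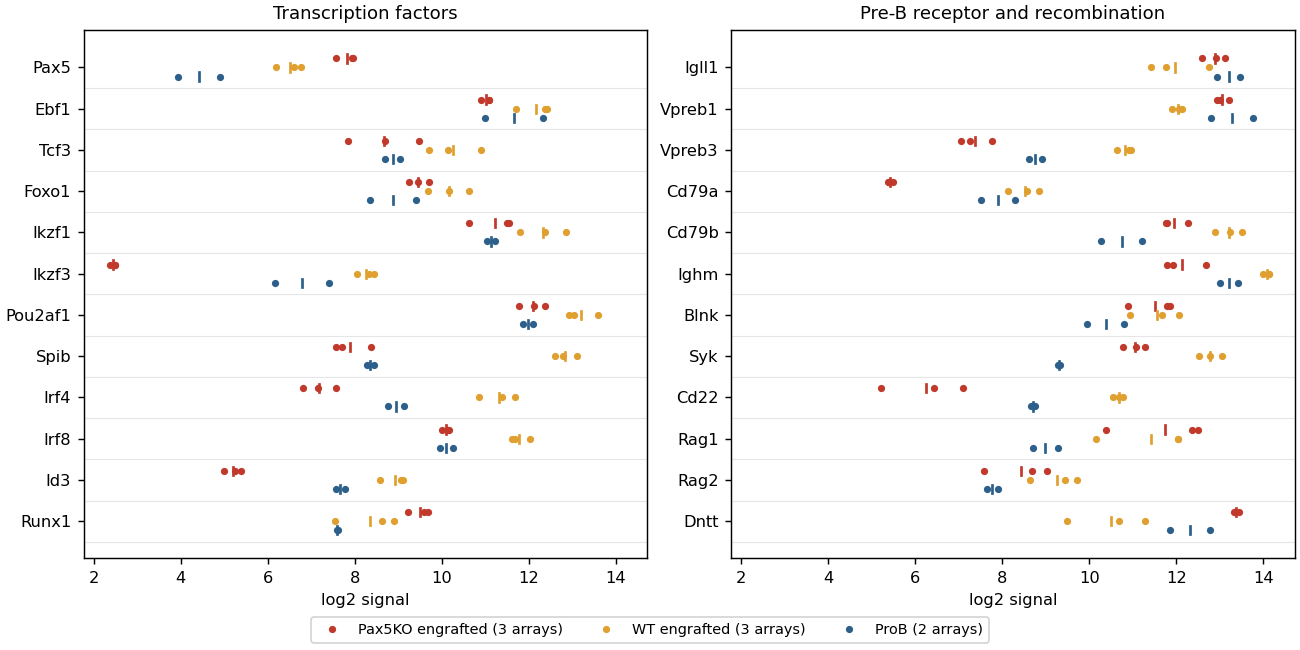
Log2 signal on each array (points) and group mean (ticks) of 12 transcription factors (left) and 12 genes of the pre-B receptor and of recombination (right) in Pax5KO engrafted (red), WT engrafted (yellow) and ProB cells (blue). Ebf1, Irf8, Igll1 and Vpreb1 overlap between Pax5KO and ProB arrays, whereas Ikzf3, Id3, Cd79a and Cd22 lie lower in Pax5KO cells.

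Among ProB transcripts that were not called and whose interval lay within 2-fold, the 10 with the largest excess of ProB over Ly6D+ CLP cells, a progenitor group of the same series, were Rsph9, Acp5, Pggt1b, Ccnf, Sbk1, Ofd1, Babam2, Lamtor2, Ptpn1 and Fxr1. Rsph9, a radial spoke protein like Rsph1, read 8.57, 9.0 and 8.69 in Pax5KO cells, against 8.38 and 8.78 in ProB cells and 4.43 and 5.22 in Ly6D+ CLP. Its difference was 0.17, with an interval of -0.54 to 0.88. Acp5, an acid phosphatase, read 7.18, 7.03 and 6.88 in Pax5KO cells and 7.18 and 6.77 in ProB cells, with an interval of -0.61 to 0.72. Sbk1, a kinase, differed by 0.03 (-0.84 to 0.90), and Ccnf, which encodes cyclin F, by -0.18 (-0.98 to 0.61). Sbk1 read 12.38 to 12.55 in WT engrafted cells, above both other groups. The 10 genes were chosen by ProB and Ly6D+ CLP values, and their differences are a description.

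ccdc198, a coiled-coil protein, had the largest rise without the mark. It read 8.23, 9.64 and 10.49 in Pax5KO cells, against 2.33 and 2.61 in ProB cells, with 2.35, 2.33 and 2.36 in WT engrafted cells. The ProB and WT arrays were all at the floor, so the rise was at least 6.98 (SE 0.51, limma adjusted p = 0.000189). Stum read 8.79, 9.42 and 9.10 in Pax5KO cells against 2.64 and 2.42 in ProB cells, and Dlx1, a homeobox factor known from forebrain development, 8.31, 8.30 and 7.22 against 2.32 and 2.33. Both were at the floor in ProB cells, and rose by at least 6.57 and 5.62. In all, 58 of the genes called higher were at the floor in ProB cells and 460 did not reach the ProB transcript level.

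The other named rises included receptors and a channel. Ffar2, which senses short-chain fatty acids, read 9.79, 9.91 and 10.60 in Pax5KO cells and 3.52 and 3.94 in ProB cells, a rise of 6.37 (SE 0.69, limma adjusted p = 0.00152) with 2 of 2 probe sets called. Gpr25, an orphan receptor, rose by at least 5.38 and Kcng1, a potassium channel subunit, by 5.58 (SE 0.22, limma adjusted p = 5.61e-06). Il18rap, a chain of the receptor for interleukin 18, read 9.25, 9.84 and 9.24 in Pax5KO cells against 3.59 and 4.19 in ProB cells (rise 5.55, SE 0.47, limma adjusted p = 0.00045). Ifitm1, an interferon-inducible membrane protein, rose by 6.51, Spns2, a transporter of sphingosine 1-phosphate, by 5.31, and Atp8b4, a lipid flippase, by 5.97. Ehd3, of endocytic recycling, rose by 5.63, and Ppp1r3b, which directs a phosphatase to glycogen, by 5.31. All 12 named rises were called in each of the 8 omissions. Kcng1 and Atp8b4 each had 1 of 2 probe sets called, and Ehd3 had 2 of 2.

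Most of these 12 genes were also read in the progenitors. In Ly6D+ CLP, Kcng1 read 10.16 and 9.66, Atp8b4 10.04 and 9.85, and Il18rap 9.78 and 9.75, close to or above the Pax5KO values. Gpr25 read 7.73 and 8.37 there, and Spns2 8.05 and 8.35. ccdc198 and Dlx1 did not follow that pattern and lay at the floor in Ly6D+ CLP, while Ehd3 read 4.78 and 3.10. These are levels set side by side, with no test.

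Genes described as repressed by Pax5 were higher or not called, and none was lower. Of 17 measured members 7 (41.2%, against 4.22% of all genes) were called higher and 0 lower. The median of the list was 1.44 against 0.00 over all genes, and each of the 8 omissions gave 7 called higher. With equal array medians 8 were called higher and 1 lower. Flt3, a cytokine receptor of lymphoid and multipotent progenitors, read 9.67, 9.98 and 8.74 in Pax5KO cells, 3.66, 3.63 and 3.39 in WT engrafted cells, and 5.99 and 5.16 in ProB cells. Lmo2, a partner of progenitor transcription factors, read 10.67, 10.68 and 10.30 in Pax5KO cells, 7.76, 8.02 and 7.44 in WT engrafted cells, and 6.79 and 7.06 in ProB cells. Flt3 rose by 3.89 (SE 0.37, limma adjusted p = 0.000786) and Lmo2 by 3.63 (SE 0.22, limma adjusted p = 7.61e-05), both with no overlap. Notch1, the receptor that directs T cell fate, read 11.92, 11.69 and 11.59 in Pax5KO cells and 7.92 and 8.05 in ProB cells, and rose by 3.74 (SE 0.21, limma adjusted p = 4.53e-05). It was the only one of the 7 with the mark, since WT engrafted cells lay a called 1.17 above ProB cells.

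The other 4 were Fcer1g, the shared γ chain of Fc receptors, with a rise of 3.45, Emb, an adhesion molecule, with 2.86, Cd93, a surface lectin of early precursors, with 2.66, and Egfl7, an endothelial and progenitor factor, with 2.41. WT engrafted cells lay below ProB cells in Flt3, Emb and Egfl7, with called differences of -2.02, -2.63 and -2.28. Members that stayed at or near the floor in both groups were Ptcra, Prdm1 and Ccl3. Csf1r, the receptor for the macrophage growth factor, read 3.10, 4.38 and 5.72 in Pax5KO cells, against 3.20 and 2.94 in ProB cells, and was not called (difference 1.33, interval -0.85 to 3.52). Jchain, which joins IgA and IgM, read 11.78, 11.99 and 12.54 in Pax5KO cells, 2.93, 6.27 and 6.41 in WT engrafted cells, and 12.00 and 12.22 in ProB cells.

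Genes of stem cells and multipotent progenitors had a median of 0.75 over 18 measured. Of these, 6 (33.3%, against 4.22% of all genes) were called higher and 0 lower. Besides Flt3, Lmo2 and Egfl7 they were Cd27, a receptor of progenitors and lymphocytes, Lyl1 and Tal1, both bHLH factors. Cd27 read 6.93, 6.93 and 6.10 in Pax5KO cells, against 3.09 and 3.01 in ProB cells (rise 3.60, SE 0.31, limma adjusted p = 0.000497). Kit, the receptor for stem cell factor, read 7.0, 7.13 and 4.61 in Pax5KO cells and 5.32 and 4.89 in ProB cells, and was called only without Pax5KO array 3 (1.97, limma adjusted p = 0.0476). Cd34, Hlf and Procr were at the floor in both groups. Tal1, with a rise of 1.61, lost its call in 7 of 8 omissions, all but that of Pax5KO array 2 (limma adjusted p up to 0.244).

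Some genes known from the T and NK lineages were higher, while Gata3, the Cd3 chains and Ncr1 stayed at the floor. Of 18 T lineage and Notch genes 2 (11.1%, against 4.22% of all genes) were called higher, Notch1 and Cd247, the ζ chain of the T cell receptor complex, and 0 lower. Cd247 read 6.07, 5.55 and 5.52 in Pax5KO cells against 2.42 and 3.16 in ProB cells (rise 2.93, limma adjusted p = 0.00195), with 1 of 4 probe sets called. Gata3, Cd3d, Cd3g and Ptcra read 2.32 on all 5 arrays. The mean level of the list was 3.93 to 4.03 on Pax5KO arrays and 3.44 to 3.60 on ProB arrays. Of 15 NK and innate genes 3 (20.0%) were called higher: Il18r1, Id2 and Klrd1. Il18r1, the other chain of the interleukin 18 receptor, read 6.57, 7.23 and 7.54 in Pax5KO cells and 3.04 and 2.72 in ProB cells. It rose by 4.23 (SE 0.56, limma adjusted p = 0.00350), so that both receptor chains were higher. Id2, an inhibitor of E proteins that innate lymphoid cells need, rose by 3.74 with the mark, while Ncr1, Tbx21, Eomes, Gzmb and Prf1 were at the floor. The mean level of the NK list was 3.55 to 3.72 on Pax5KO arrays, 2.72 to 2.80 on WT engrafted arrays and 2.64 to 2.83 on ProB arrays.

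Of 22 granulocyte and monocyte genes 2 (9.09%, against 4.22% of all genes) were called higher, Ctsg and Fcer1g, and 0 lower. Ctsg, the granule protease cathepsin G, read 8.49, 8.50 and 8.78 in Pax5KO cells, 5.21, 5.49 and 7.39 in WT engrafted cells, and 2.65 and 2.42 in ProB cells. It rose by at least 6.06 (SE 0.87, limma adjusted p = 0.00539) and was marked. Mpo, myeloperoxidase, read 7.99, 7.51 and 7.99 in Pax5KO cells and 3.27 and 3.18 in ProB cells (difference 4.60, not called, limma adjusted p = 0.0697). It was called without WT engrafted array 1 (0.00308) or 3 (0.0311). Elane, Lcn2, Ltf, Camp and Ngp were near the floor on all 5 arrays. The list's mean level was 3.59 to 3.92 on Pax5KO arrays, 3.27 to 4.42 on WT engrafted arrays and 2.79 on both ProB arrays. What part such cells had in Ctsg and Mpo was not tested. Of 13 dendritic cell genes 3 (23.1%, against 4.22%) were called higher, Flt3, Tlr7 and Bst2, with Siglech, Xcr1 and Batf3 at the floor. The mean level of that list was 4.86 to 5.16 on Pax5KO arrays, 4.09 to 4.15 on WT engrafted arrays and 4.15 to 4.20 on ProB arrays.

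A part of the interferon response genes was higher in Pax5KO cells. Of 16 measured members, with a median of 1.39, 5 (31.2%, against 4.22% of all genes) were called higher and 0 lower. They were Rtp4, Rsad2, Usp18, Irf7 and Bst2. Rtp4 read 9.72, 9.67 and 9.15 in Pax5KO cells, 7.68, 7.77 and 6.0 in WT engrafted cells, and 6.39 and 6.71 in ProB cells, and rose by 2.96 (SE 0.48, limma adjusted p = 0.00931). Rtp4 kept its call in each omission, but the others did not, and the count of called members was 2 without Pax5KO array 1 or 2, 3 without Pax5KO array 3 or ProB array 1, and 1 without ProB array 2. Irf7, a regulator of interferon genes, lost its call without Pax5KO array 1 or ProB array 2 (up to 0.0884), and Rsad2, Usp18 and Bst2 lost theirs without Pax5KO array 2 or ProB array 2, among others (up to 0.162). After quantile normalisation 2 members were called.

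Of 17 genes of interleukin 7 signalling, the growth signal of ProB cells, 3 were called higher and 0 lower, with a median of 0.33. Over all genes, 4.22% were called higher and 1.02% lower. Myc, a regulator of growth, read 11.05, 10.67 and 9.86 in Pax5KO cells, 6.98, 8.22 and 7.63 in WT engrafted cells, and 7.65 and 7.85 in ProB cells. It rose by 2.78 (SE 0.40, limma adjusted p = 0.00518). Il7r, the receptor chain, rose by 1.54 with the mark, and Cish, a feedback inhibitor, by 2.05. The Il7r call ended in 5 and the Cish call in 7 of the 8 omissions, each without Pax5KO array 1 or 2 or either ProB array, among others (up to 0.214).

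Of 27 cell cycle genes 2 (7.41%, against 1.02% of all genes) were called lower and 0 higher, with a median of -0.35. Omissions of 1 array gave 0 to 1 called lower, and that of WT engrafted array 1 gave 2 called higher and 0 lower. Mki67 read 12.95, 13.22 and 12.07 in Pax5KO cells against 13.50 and 13.65 in ProB cells without a call. Ccna2, cyclin A2, and Plk1, a mitotic kinase, both fell by 1.36. The Plk1 call ended in all 8 omissions and the Ccna2 call in 6 of them, all but those of Pax5KO array 2 and WT engrafted array 2 (up to 0.164). Of 13 genes of glucose uptake and glycolysis only Slc2a3, a glucose transporter, was called (7.69%, against 4.22% of all genes called higher). It rose by 2.16 (limma adjusted p = 0.00537).

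**Figure D5:**
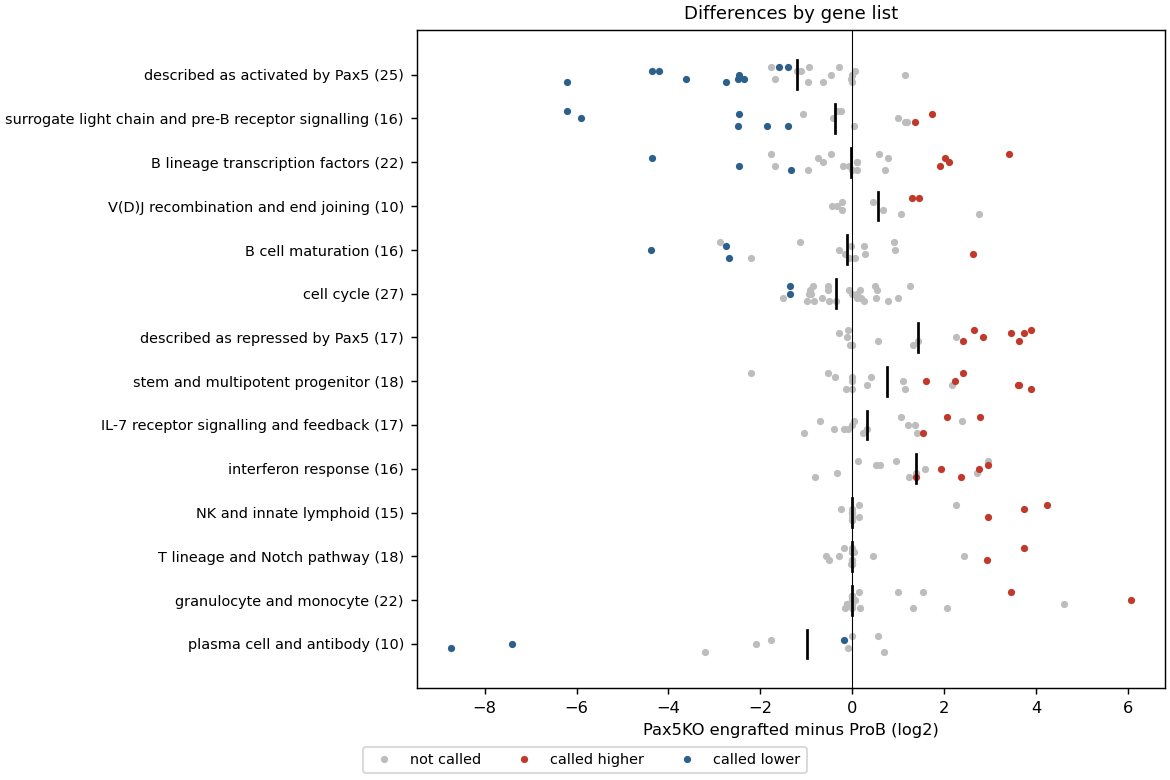
Pax5KO engrafted minus ProB (log2, horizontal axis) for each measured gene of 14 lists (rows, number measured in brackets), with called genes coloured and the list median as a black tick. The list of genes described as activated by Pax5 has calls only on the lower side (10 of 25) and that of genes described as repressed only on the higher side (7 of 17).

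Of 16 B cell maturation genes 3 (18.8%, against 1.02% of all genes) were called lower, Ms4a1, Siglecg and Fcmr, and 1 higher. Fcmr, the Fc receptor for IgM, read 2.32, 2.44 and 2.34 in Pax5KO cells, 11.12, 11.15 and 10.26 in WT engrafted cells, and 5.15 and 4.93 in ProB cells, and fell by at least 2.68 (SE 0.25, limma adjusted p = 0.000729). The gene called higher, Ltb, a cytokine of the tumour necrosis factor family, rose by 2.62 with the mark. The Ltb call ended without any 1 of the Pax5KO arrays, ProB array 1 or WT engrafted array 1 or 2 (up to 0.189). Cd40, Cd83 and Cd86 read at most 3.58 in Pax5KO and ProB cells, while Cd40 reached 8.10 in WT engrafted cells. Of 16 pre-B stage genes 2 were called higher, Il2ra and Btg2, both with the mark, and 2 lower. Each share was 12.5%, against 4.22% called higher and 1.02% called lower of all genes. The Btg2 call ended in all omissions but that of Pax5KO array 3 (up to 0.168), and the Il2ra call without ProB array 2 (0.0632). Of 10 genes of MHC class II presentation H2-DMa was called, higher by 3.17 with the mark, and 0 were called lower. Without Pax5KO array 3 the list had 4 called lower, and without ProB array 2 it had 2 called higher.

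Antibody transcripts of switched classes were seen on the ProB arrays alone among the 3 groups. Igha, the IgA heavy chain, read 3.14, 3.28 and 3.14 in Pax5KO cells, 3.15, 3.14 and 3.75 in WT engrafted cells, and 11.91 and 11.95 in ProB cells. Ighg3, an IgG heavy chain, read 2.66, 2.67 and 2.70 in Pax5KO cells, 2.64, 2.66 and 2.66 in WT engrafted cells, and 9.96 and 10.19 in ProB cells. The falls were 8.74 (SE 1.07, limma adjusted p = 0.00258) and at least 7.40 (SE 0.44, limma adjusted p = 7.05e-05), both with the mark. All 3 probe sets of Igha were called, and 1 of 4 of Ighg3. Of 10 plasma cell and antibody genes 3 were called lower and 0 higher, the last being Tnfrsf17, at the floor in both groups. The Tnfrsf17 call ended in 6 of 8 omissions, all but those of the ProB arrays (limma adjusted p up to 0.105), which left 2 called lower. Mean levels of the list were 6.09 to 6.30 on Pax5KO arrays, 6.41 to 6.76 on WT engrafted arrays and 8.36 to 8.49 on ProB arrays. Sdc1, a surface marker of plasma cells, read 5.72, 5.96 and 6.93 in Pax5KO cells, against 7.95 and 8.63 in ProB cells without a call. Whether plasma cells contributed to the ProB arrays was not tested. Slpi, a protease inhibitor, also fell with the mark, by 5.54, as did Bcat1, an enzyme of branched-chain amino acids, by at least 6.2. Bcat1 read 2.75, 2.39 and 2.57 in Pax5KO cells, 6.48, 6.37 and 7.27 in WT engrafted cells, and 8.48 and 9.05 in ProB cells. Its WT engrafted minus ProB difference, -2.06, was called but small beside the fall in Pax5KO cells.

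Rises with the mark had, by its definition, the same direction in both engrafted groups. Gpr18, a receptor of lymphocytes, read 9.57, 10.12 and 9.91 in Pax5KO cells, 9.70, 9.51 and 8.70 in WT engrafted cells, and 5.03 and 4.26 in ProB cells. It rose by 5.22 (SE 0.36, limma adjusted p = 0.000149). Pld4, an endolysosomal exonuclease, read 7.0, 6.98 and 8.11 in Pax5KO cells, 8.93, 8.87 and 8.39 in WT engrafted cells, and 3.11 and 3.24 in ProB cells. Cmah, a hydroxylase of sialic acid, rose by 5.27, and Csf2rb, the shared chain of the receptors for interleukin 3 and GM-CSF, by 4.60. Of the Cmah probe sets 2 of 6 were called, and of those of Csf2rb 1 of 2. PreB and Ly6D+ CLP cells, sorted from mice with no transplant, also lay above ProB cells in these genes. Their mean levels were 8.2 and 8.6 for Gpr18, 5.6 and 7.3 for Pld4, 8.3 and 10.2 for Cmah, and 7.5 and 9.0 for Csf2rb. Whether the transplant had a part in these rises was not tested. Fos, an immediate early factor, fell with the mark: it read 6.21, 7.15 and 8.91 in Pax5KO cells, 8.41, 9.01 and 6.80 in WT engrafted cells, and 11.48 and 12.17 in ProB cells. The Fos difference was -4.40 (SE 0.81, limma adjusted p = 0.0174), and its call ended without Pax5KO array 2 or ProB array 2 (0.0586 and 0.100).

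The remaining lists held few calls. Equal array medians, which lowered genes at the floor along with the rest, called 4 members lower in the T lineage list, 1 in the NK list and 9 in the cell cycle list. Of 21 immediate early and stress genes Fos was called lower and Btg2 higher. Each share was 4.76%, against 1.02% called lower and 4.22% called higher of all genes. None of 13 erythroid and megakaryocyte genes was called. Of 14 stromal and endothelial genes Sparc alone was (7.14%, against 1.02% of all genes called lower), with a fall of 1.36 to a level at the floor. Among 9 genes of the fetal liver program only Igf2bp3, an RNA-binding protein of fetal blood cells, was called (11.1%, against 4.22% of all genes called higher). It was higher by 2.76 (SE 0.38, limma adjusted p = 0.00415), with 4 of 6 probe sets called. It read 9.18, 9.57 and 8.67 in Pax5KO cells, 6.71, 6.17 and 6.50 in WT engrafted cells, and 6.14 and 6.62 in ProB cells. WT engrafted cells differed from ProB cells by 0.08. Whether fetal liver origin had a part in the Igf2bp3 level was not tested. Lin28b, Lin28a and Igf2 were at the floor on all 5 arrays.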

How the data were processed

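Per the labels, RNA of sorted marrow cells was hybridised to Affymetrix arrays. The authors deposited 1 table of log2 values, and the submitters' processing notes name RMA, GCRMA and limma. Which of them made the table, and the versions, are not given in the sources used here. Array medians were 2.41 to 2.52, which is at the floor, so they do not show whether the table was scaled between arrays. Upper quartiles were 5.98, 5.9 and 5.77 on Pax5KO arrays, 5.85, 5.9 and 5.69 on WT engrafted arrays, and 5.51 and 5.39 on ProB arrays. No further scaling was applied. The number of arrays limits the precision.

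Gene names came from the platform annotation, updated through RefSeq (GRCm38.p6), where 34741 of the 34945 probe sets with 1 symbol were matched. Probe sets with several symbols (932) or none here (9160) and 64 controls were left out. Each gene was represented by its probe set of highest mean over all 14 arrays (9010 of 18193 genes had several). limma 3.58.1 in R 4.3.3 (lmFit, eBayes) was fitted with a mean per group over all 14 arrays, leaving residual degrees of freedom of 8. All tests were two-sided, with Benjamini-Hochberg adjustment over all genes, and group replicates share only a number, so no pairing was used. The script was tested on simulated data.

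Genes were named by rule: the 12 largest rises and falls without and the 5 with the transplant mark, 10 ProB transcripts kept, and list members, passing over gene segments and unnamed clones. The 23 lists (401 entries, 363 measured) were written from general knowledge. Members and lists were chosen with earlier results of these data known. Alternatives covered the arrays in the fit, weights, probe sets, filters, scaling, variance, fold, Xist, a replicate block and each array left out.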

Additional observations from a re-analysis of the deposited data

How the results depend on the processing

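Of the 126 genes followed through the alternatives none reversed its sign while called, and of the 88 called ones 60 kept the call in all 8 single-array omissions. The fit on only the 5 arrays, with fewer degrees of freedom, lost 60 of the 88 calls and holds no WT engrafted comparison, quantile normalisation lost 13 and a test for at least 2-fold lost 41. Leaving out each array in turn, 565 to 1883 genes were called for Pax5KO engrafted and 489 to 1825 for WT engrafted against ProB, and 269 to 1536 were marked for the transplant. Of the ProB transcripts, 55 to 115 were then called lower, 8 to 11 of them at the floor, 178 to 332 were called higher, 470 to 1010 had an interval within 2-fold and 3754 to 4837 a wider one. On only the 5 arrays 191 genes were called, with 23 ProB transcripts lower and 56 higher. The 2-fold test called 166 genes (30 and 28) and 132 in WT engrafted cells, with 53 marked. Quantile normalisation gave 181 ProB transcripts lower and 194 higher. Equal array medians gave 6510 calls (377 and 497) and 1595 marked, with genes at the floor shifted by that scaling. The mean of a gene's probe sets gave 3 ProB transcripts at the floor, 170 higher and 1989 with a wider interval, and every probe set tested alone gave 13 at the floor. With ProB transcripts at least 6 above the lowest value, 52 were lower (3 at the floor), 118 higher and 1657 had a wider interval. An interval of -2 to 2 held 3755 ProB transcripts. Array weights, filters on dim genes, the variance trend, the fit on 8 arrays and a term for high Xist kept each of these totals within 1.5 times, but the Xist term took the genes called lower in WT engrafted cells to 97. The shared replicate numbers did not pair the arrays (correlations of deviations 0.18 and -0.155 over 8713 genes), and the fit with a replicate block called 843 genes, 697 higher and 146 lower. Arrays give only a floor, not a detection limit, for transcripts near 2.32.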
